A study of Mus musculus with 6 samples.

Results

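The collagen genes of the mouse hippocampus were compared between 3 p300-ifKO mice and 3 control mice. Members were the genes whose symbol is Col followed by a type number, the letter a and a chain number, after identifiers were mapped to symbols, and 44 of 55471 genes met that rule. All mice were C57BL/6 per the labels (C57BL/6J per the study) and 3 to 6 months old, and each library held total RNA of the hippocampus of 1 mouse. In p300-ifKO mice the floxed Ep300 gene, which encodes the acetyltransferase p300, was recombined by creERT2 under the Camk2a promoter, which is active in excitatory forebrain neurons. Both groups received 5 intragastric administrations of tamoxifen, and per the study the RNA was taken 1 month after the ablation. The protocol describes controls as littermates without creERT2, while the description of the control libraries names the driver. Fibroblasts, endothelial cells and mural cells, the known sources of most collagens, are not targeted by that driver.

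Collagens are secreted or membrane proteins built from chains that wind into a triple helix, and each type is assembled from a fixed set of chains. Fibrillar collagens (types I, II, III, V, XI, XXIV and XXVII) form the banded fibrils of connective tissue, which in the brain is found mainly in the meninges and around large vessels. Basement membrane collagens (type IV, with the associated types XV and XVIII) form the sheet under endothelium and around pericytes. Type VI forms beaded filaments, the FACIT collagens (IX, XII, XIV, XVI, XIX, XX and XXII) decorate fibrils, and types XIII, XVII, XXIII and XXV span the cell membrane. In the brain, types XIX and XXV are known as products of neurons.

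The start sites of the genes differ in base composition. The stretches before a RefSeq start site of 4 members that recur below are shown for that reason. They were taken from RefSeq promoter windows (250 bases before to 50 after a start site, GRCm38.p6), of which 38 matched 35 of the 44 genes. For Col25a1 this start site lies inside the gene as counted, which begins at position 130131501 of chromosome 3. Exon sequence is left out, each sequence runs 5′ to 3′ on the strand of the gene, and capitals mark matches on either strand to the letters of a TATA box (TATAAA), a GC box of the kind bound by Sp1 (GGGCGG) or a CCAAT box, wherever they lie. The fibrillar Col3a1 (chr1:45311288-45311537, plus strand) and Col5a1 (chr2:27886175-27886424, plus strand), the beaded filament gene Col6a2 (chr10:76623631-76623880, minus strand) and the neuronal Col25a1 (chr3:130180595-130180844, plus strand) are given in that order.
Col3a1: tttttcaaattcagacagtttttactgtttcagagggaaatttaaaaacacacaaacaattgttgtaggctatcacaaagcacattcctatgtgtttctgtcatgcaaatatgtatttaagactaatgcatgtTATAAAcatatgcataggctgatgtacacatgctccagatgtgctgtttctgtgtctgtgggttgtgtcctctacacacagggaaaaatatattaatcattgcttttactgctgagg
Col5a1: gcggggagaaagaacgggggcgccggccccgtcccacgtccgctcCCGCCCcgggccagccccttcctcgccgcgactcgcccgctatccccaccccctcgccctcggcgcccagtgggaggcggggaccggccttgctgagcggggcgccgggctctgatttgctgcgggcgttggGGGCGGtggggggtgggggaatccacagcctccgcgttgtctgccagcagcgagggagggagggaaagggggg
Col6a2: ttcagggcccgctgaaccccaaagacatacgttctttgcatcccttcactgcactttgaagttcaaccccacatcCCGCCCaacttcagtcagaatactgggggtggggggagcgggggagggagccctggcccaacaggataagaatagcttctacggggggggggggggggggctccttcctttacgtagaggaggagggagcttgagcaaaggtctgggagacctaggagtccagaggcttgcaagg
Col25a1: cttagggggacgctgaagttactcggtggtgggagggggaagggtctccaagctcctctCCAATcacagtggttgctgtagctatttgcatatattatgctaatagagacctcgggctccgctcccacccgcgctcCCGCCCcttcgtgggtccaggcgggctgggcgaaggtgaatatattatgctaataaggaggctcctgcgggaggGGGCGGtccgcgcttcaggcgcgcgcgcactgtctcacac
The Col3a1 window was 37.7% G and C and held TATAAA, whereas the Col5a1 window was 75.0% G and C and held GGGCGG. Over all 38 collagen windows, GGGCGG occurred in 60.53% (35.66% of 32851 promoters of all genes), CCAAT in 34.21% (37.41%) and TATAAA in 13.16% (13.62%), searched on both strands. The median G and C content was 59.83% in collagen windows and 52.67% in all promoters. GGGCGG was present in 6 of 8 fibrillar, 5 of 8 basement membrane, 5 of 7 beaded filament, 2 of 6 FACIT, 2 of 4 transmembrane and 3 of 5 network-forming and other windows.

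Type IV genes lie in pairs, head to head, and the first exons of Col4a1 and Col4a2 overlap by 22 bases on opposite strands of chromosome 8, from 11312805 to 11312826. That overlap is printed on the plus strand (chr8:11312801-11312830), with the shared bases in capitals, because the ratio of these chains is described below.
Col4a1 and Col4a2: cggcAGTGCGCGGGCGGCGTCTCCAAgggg
The start sites of Col4a3 and Col4a4 are separated by 71 bases on chromosome 1, and those of Col4a5 and Col4a6 by 1308 bases on chromosome X.

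Library totals were 23151568 to 28433823 counts. The targeted gene Ep300 had 1545, 1474 and 2334 normalized counts (counts divided by the size factor of the library) in control mice and 478, 1350 and 912 in p300-ifKO mice. It was lower in each p300-ifKO library, with a DESeq2 log2 fold change of −0.97 (unadjusted p = 0.00369, adjusted p = 0.991). Esr1, part of which is carried by creERT2, had 102 ± 12.5 normalized counts in controls and 3167 ± 937 in p300-ifKO mice (SD, n = 3). The study describes raised Esr1 as a trait of mice with this driver. The control libraries, at 87.2 to 109 normalized counts, all lay far below the lowest p300-ifKO library, at 2416. The libraries stood apart along transcript length: the Spearman correlation across genes between deviation and exonic length was −0.504 in p300-ifKO replicate 1, −0.277 in p300-ifKO replicate 3 and 0.16 to 0.415 in the other 4 libraries. This touches the collagen genes, whose median exonic length was 7542 bases against 4100 bases for the 17070 genes with a mean above 10 normalized counts. The group results are also given without p300-ifKO replicate 1, without control replicate 3 and with 1 surrogate variable. The first library held the lowest value of 28 of the 44 members and the second the highest value of 23. Leaving out either thus tends to bring fold changes nearer 0. The highest correlation, 0.415, was in p300-ifKO replicate 2, whose omission is described further below. The part of length in these results was not tested otherwise than by a fit with length and GC offsets.

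All 44 collagen genes had reads, and type VI and type IV chains led the order of levels per kb of exon. Per kb, the mean level over 6 libraries was 464 normalized counts for Col6a1 (a type VI chain), 363 for Col4a2 and 239 for Col4a1 (the vascular type IV chains), 159 for Col11a2 (a type XI chain) and 150 for Col25a1. These 5 genes exceeded all other members on this scale. Col1a1, Col1a2 and Col3a1, the chains of the main fibrils of skin and bone, were far down the order, with mean levels of 21.8, 18.2 and 4.90 normalized counts per kb. At the bottom were Col10a1, of growth plate cartilage, at 0.985 and Col17a1, of skin hemidesmosomes, at 0.836 normalized counts per kb. Col10a1 had no read in p300-ifKO replicate 1.

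**Figure D1:**
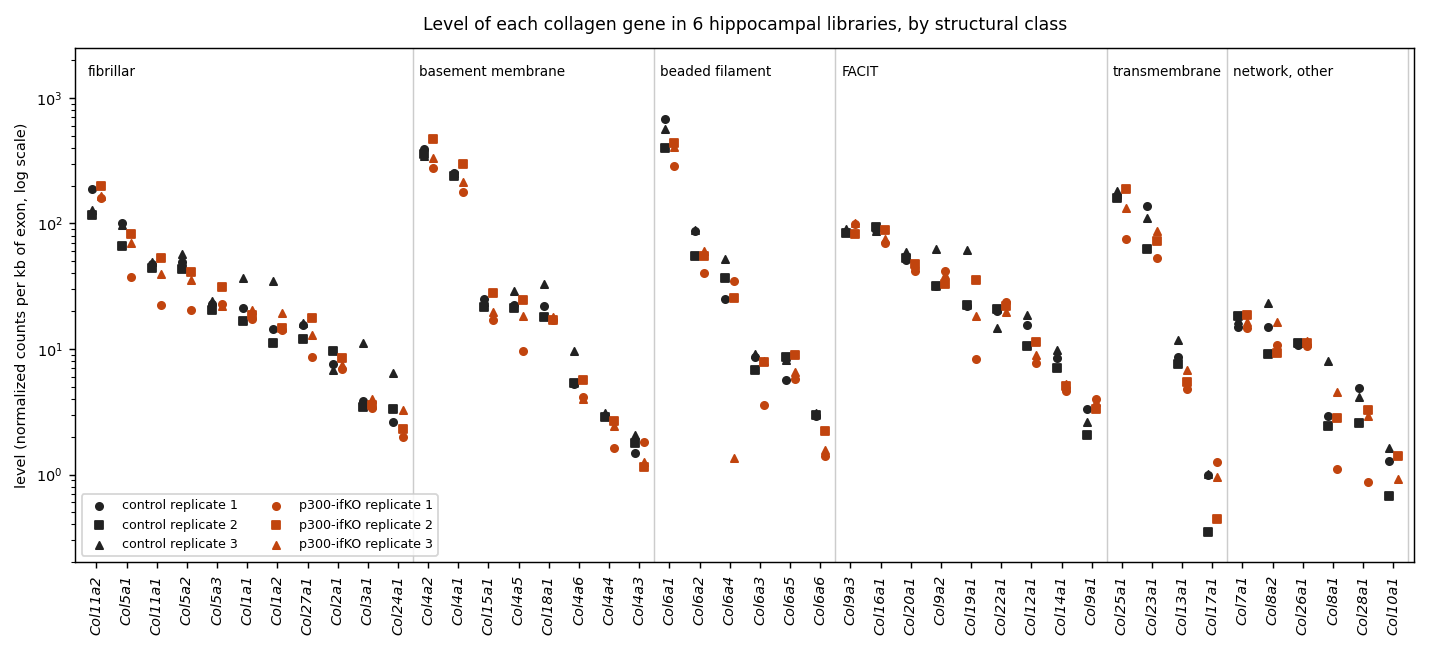
The y axis (log scale) gives normalized counts per kb of exon for each of the 44 collagen genes, ordered by mean level within 6 structural classes; each point is 1 mouse, black for control and orange for p300-ifKO. Col6a1, Col4a2 and Col4a1 are the highest, and p300-ifKO replicate 3 lies far below the other libraries for Col6a4. Col10a1 in p300-ifKO replicate 1 had a level of 0 and is not drawn.

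Whether collagen expression in the hippocampus differed between p300-ifKO and control mice was asked gene by gene. No collagen gene passed the threshold (adjusted p under 0.05): DESeq2 called 0 of 44 members, against 2 of 32773 genes tested (0.00610%), and edgeR called 0 of 42, against 0.0117% of genes. At an unadjusted p under 0.05, DESeq2 gave 5 members, all lower in p300-ifKO mice (0.546% of all genes were lower at that level), and 0 higher (0.772%). These were Col5a2, Col6a1, Col6a2, Col12a1 and Col14a1, with adjusted p = 0.991 for all 5 in DESeq2. The edgeR test gave 7 lower at an unadjusted p under 0.05 (0.951% of genes) and 0 higher.

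Most fold changes pointed one way. The log2 fold change was below 0 for 37 of the 44 members (84.1%), against 54.7% of all genes tested and 50.7% of genes with a mean above 10 normalized counts. The median was −0.36 over members and −0.046 over all genes. In 6 members every p300-ifKO mouse lay below every control mouse (3.42% of all genes), namely Col4a4, Col5a2, Col6a6, Col13a1, Col14a1 and Col20a1, and in 0 every one lay above (3.21%). For 20 of the 44 members the 95% interval excluded a 2-fold change in both directions (41.9% of all genes tested, 80.5% of those with a mean above 10), and for 40 it excluded a 2-fold higher level in p300-ifKO mice (48.5% and 89.6%).

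The pattern was uneven between libraries. The lowest value of a member fell in p300-ifKO replicate 1 for 28 of 44 (63.6%, against 37.8% of genes with a mean above 10), and the highest in control replicate 3 for 23 of 44 (52.3%, against 21.9%). Without p300-ifKO replicate 1, 32 of 44 fold changes were below 0 (50.3% of genes with a mean above 10) and the median was −0.21, and 4 members (Col5a2, Col6a1, Col6a2 and Col12a1) were lower at an unadjusted p under 0.05 (0.270% of all genes). Without control replicate 3, 31 were below 0 (48.9%), the median was −0.20, and no member had an unadjusted p under 0.05 (0.0759% of genes were lower at that level). With 1 surrogate variable, which took its lowest value in p300-ifKO replicate 1 and its highest in control replicate 3, 27 were below 0 (49.7%), the median was −0.11, and 2 members (Col5a2 and Col6a2) were lower at an unadjusted p under 0.05 (0.482%). The variable was 0.10, 0.077 and 0.44 in controls and −0.82, 0.32 and −0.13 in p300-ifKO mice. It thus partly followed group, and its fit can take up part of a group difference. With length and GC offsets, 34 of 42 members with enough reads were below 0 (43.8%), with a median of −0.29 and 7 lower at an unadjusted p under 0.05 (0.927%). Without control replicate 2 that number was 10 (0.537%), and without control replicate 1 it was 1, Col5a2 (0.320%), with Col11a2 higher.

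Leaving out a library can only add genes without overlap, among members as among all genes. Without control replicate 3, 7 members lay wholly lower in p300-ifKO mice (6.33% of genes) and 1, Col9a2, wholly higher (5.57%). Without p300-ifKO replicate 1 there were 7 lower (6.19%) and 1 higher, Col26a1 (5.49%). With length and GC offsets there were 9 lower (3.36%) and 0 higher (4.68%).

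**Figure D2:**
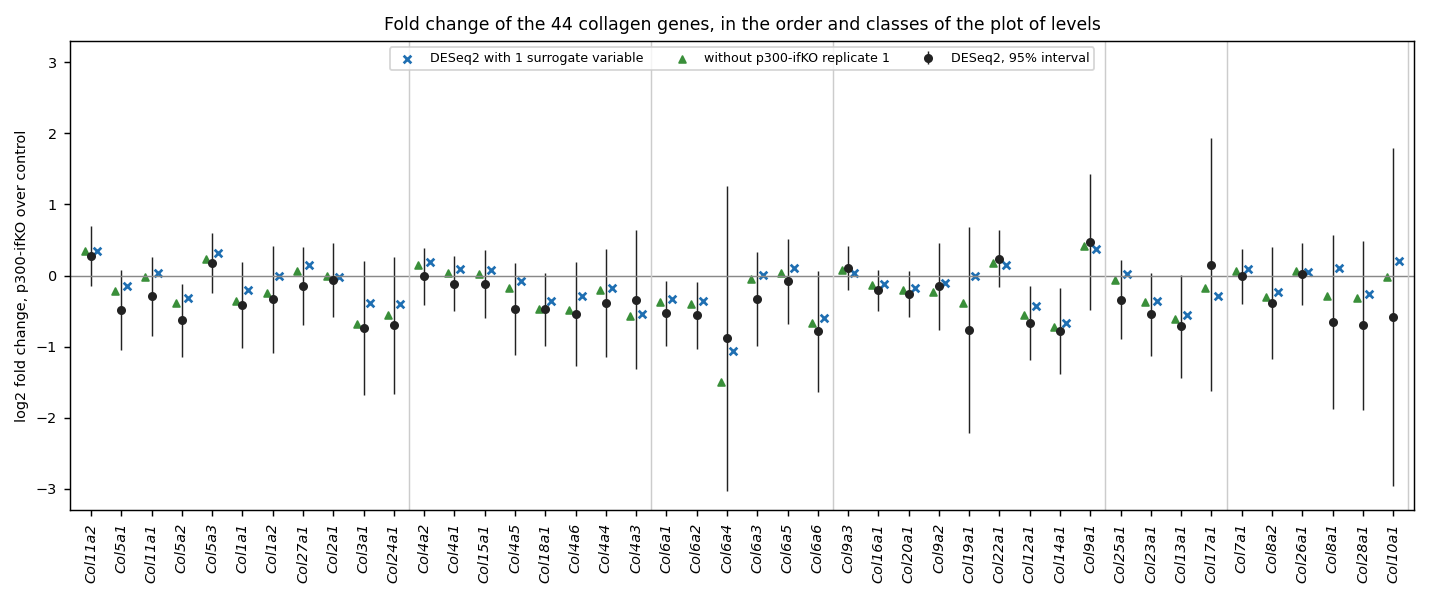
The y axis gives the log2 fold change of p300-ifKO over control for each of the 44 members; black points are DESeq2 estimates with 95% intervals, blue crosses the fit with 1 surrogate variable and green triangles the fit without p300-ifKO replicate 1. Of the black points 37 lie below 0, and many crosses lie nearer 0 than the points.

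By class, the medians moved by different amounts. Without control replicate 3 they were −0.071 for fibrillar (7 of 11 below 0), −0.20 for basement membrane (8 of 8), −0.47 for beaded filament (6 of 6), −0.096 for FACIT (5 of 9), −0.38 for transmembrane (3 of 4) and 0.013 for network-forming and other genes (2 of 6). Without p300-ifKO replicate 1 they were, in the same order, −0.22, −0.19, −0.39, −0.20, −0.28 and −0.15. With 1 surrogate variable they were −0.027, −0.12, −0.35, −0.11, −0.33 and 0.075. The beaded filament genes thus had the most negative median of the 6 classes in each of these 3 fits, but not in all fits. The median of the network-forming and other genes was below theirs without control replicate 1 (−0.46 against −0.40). The same held without control replicate 2 (−0.76 against −0.73) and without p300-ifKO replicate 3 (−0.69 against −0.55). Without p300-ifKO replicate 2 the 6 medians were, in the order above, −0.42, −0.41, −0.63, −0.29, −0.62 and −0.43.

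The count past the threshold also changed with 1 library, for collagens as for all genes. Without p300-ifKO replicate 2, DESeq2 called 4 members, all lower in the other 2 p300-ifKO mice. Of the 11129 genes with an adjusted p in that fit, 8.43% were called. Some members, among them Col7a1, Col8a2 and Col14a1, had no adjusted p there, so 4 of 44 is not a share on the same base. They were Col5a2 (log2 fold change −0.83, adjusted p = 0.0250 in DESeq2), Col25a1 (−0.69, adjusted p = 0.0269), Col12a1 (−0.84, adjusted p = 0.0400) and Col6a1 (−0.65, adjusted p = 0.0428). In that subset, at an unadjusted p under 0.05, 9 members were lower (6.59%). Of the 44, 16 lay wholly lower in p300-ifKO mice (16.2% of genes) and 2, Col9a1 and Col9a3, wholly higher (15.5%).

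Among the 11 fibrillar genes, 9 had a fold change below 0, 1 (Col5a2) had an unadjusted p under 0.05, and the median log2 fold change was −0.34. Col5a2, a chain of type V, which joins type I fibrils, had 472, 417 and 552 normalized counts in control mice and 195, 392 and 342 in p300-ifKO mice. All 3 p300-ifKO mice lay below all 3 controls, although the gap between control replicate 2 and p300-ifKO replicate 2 was small. The log2 fold change was −0.63 (SE 0.26, unadjusted p = 0.0161). Its partner Col5a1 had 871, 565 and 826 normalized counts in control mice and 323, 702 and 594 in p300-ifKO mice, and these ranges overlapped. Its log2 fold change was −0.48 (SE 0.29, unadjusted p = 0.0950), and 1.41% of its 50-base stretches also occur in genes that overlap it on the other strand.

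The classical fibril chains were highest in a single control mouse. Col1a1 had 140.2, 109 and 241 normalized counts in control mice and 113, 122 and 133 in p300-ifKO mice. Col1a2 had 180.0, 139.7 and 436 normalized counts in controls and 175, 181 and 242 in p300-ifKO mice, and Col3a1 had 37.8, 33.6 and 109 in controls and 33.3, 35.3 and 39.5 in p300-ifKO mice. For all 3 genes control replicate 3 was the highest library, and the other 2 controls lay within or near the p300-ifKO range. Their log2 fold changes were −0.41, −0.34 and −0.74, and Col3a1 had the lowest fold change of the class. The meningeal fibrillar list held 5 genes (Col1a1, Col1a2, Col3a1, Col5a1 and Col5a2). All 5 fold changes were below 0 with a median of −0.48, and without control replicate 3 the median was −0.022 with 3 below 0. The list was split in that fit: Col1a1, Col1a2 and Col3a1 had log2 fold changes of −0.022, 0.32 and 0.018. Those of Col5a1 and Col5a2 were −0.41 and −0.52.

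The type XI chains, better known from cartilage, differed in direction. Col11a2 had 1297, 797 and 872 normalized counts in control mice and 1087, 1358 and 1144 in p300-ifKO mice, with control replicate 1 inside the p300-ifKO range. At 0.27 (SE 0.21, unadjusted p = 0.195), its log2 fold change was the highest of the class. Col11a1 had 609, 560.0 and 628 normalized counts in controls and 284, 678 and 501 in p300-ifKO mice, with p300-ifKO replicate 1 far below the rest and replicate 2 the highest of all. The other fibrillar genes Col2a1, Col5a3, Col24a1 and Col27a1 had log2 fold changes of −0.067, 0.17, −0.70 and −0.15, with overlapping groups in each.

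The 8 basement membrane genes all had fold changes below 0, with a median of −0.36 and none at an unadjusted p under 0.05 in DESeq2. The 2 abundant chains were near 0. Col4a1 had 1886, 1794 and 1882 normalized counts in control mice and 1326, 2214 and 1596 in p300-ifKO mice, and Col4a2 had 2582, 2359 and 2289 in controls and 1842, 3133 and 2208 in p300-ifKO mice. For both genes the control mice lay close together while p300-ifKO replicate 2 was the highest and replicate 1 the lowest of the 6. The log2 fold changes were −0.11 (SE 0.20) for Col4a1 and −0.0090 (SE 0.21) for Col4a2, and both turned positive without p300-ifKO replicate 1 (0.038 and 0.15). Their intervals, −0.50 to 0.27 and −0.41 to 0.39, excluded a 2-fold change. Over the 4 vascular genes of the class (Col4a1, Col4a2, Col15a1 and Col18a1) the median was −0.12. Leaving out p300-ifKO replicate 1 moved it to 0.030, with 1 of the 4 below 0.

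The rarer type IV chains, known from kidney, testis and smooth muscle basement membranes, had more negative fold changes and far fewer reads. Col4a4 had 30.8, 30.5 and 32.7 normalized counts in control mice and 17.2, 28.3 and 26.0 in p300-ifKO mice, without overlap (log2 fold change −0.39, unadjusted p = 0.322). Col4a3, Col4a5 and Col4a6 had log2 fold changes of −0.34, −0.47 and −0.55, and their groups overlapped. For Col4a3, 4.66% of its 50-base stretches are shared with C430014B12Rik on the other strand. Col18a1, the source of endostatin, had 153, 126 and 229.6 normalized counts in controls and 120.3, 119 and 126 in p300-ifKO mice, with control replicate 3 the highest. Col15a1, of vessel and muscle basement membranes, had a log2 fold change of −0.12.

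Type VI beaded filaments, made by fibroblasts and mural cells, had 6 of 6 fold changes below 0, a median of −0.55 and 2 members at an unadjusted p under 0.05. Col6a1 had 2982, 1738 and 2494 normalized counts in control mice and 1265, 1923 and 1796 in p300-ifKO mice. Control replicate 2 lay inside the p300-ifKO range. Its log2 fold change was −0.53 (SE 0.24, unadjusted p = 0.0240). Col6a2, whose upstream sequence is printed above, had 725, 459 and 737 normalized counts in control mice and 334, 462 and 506 in p300-ifKO mice, again with control replicate 2 inside the range of the other group. Its log2 fold change was −0.56 (SE 0.24, unadjusted p = 0.0197), and Col6a3, the long chain that completes the type VI molecule, had −0.33.

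The alternative type VI chains lie side by side on chromosome 9, and their mean levels were 29.3 (Col6a4), 7.32 (Col6a5) and 2.37 (Col6a6) normalized counts per kb, against 7.34 for Col6a3. Col6a4 had 215, 311 and 447 normalized counts in control mice and 298, 218 and 11.6 in p300-ifKO mice, so that 1 library, p300-ifKO replicate 3, was far below the other 5. The SE of its log2 fold change of −0.88 was 1.10, and it overlaps Gm36993 and Gm47575 on the other strand. Col6a6 had 26.8, 27.3 and 28.6 normalized counts in controls and 12.9, 20.3 and 14.5 in p300-ifKO mice. The 3 controls lay close together and above all p300-ifKO mice (log2 fold change −0.79, unadjusted p = 0.0685), at a depth where counting error alone is large. Col6a5 had a log2 fold change of −0.083, and 3.42% of its 50-base stretches also occur in Col6a6.

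The 9 FACIT genes were divided, with 6 fold changes below 0, 3 above and a median of −0.21. Col12a1 and Col14a1, which bind the surface of type I fibrils, had the lowest unadjusted p-values of all members. Col14a1 had 59.7, 49.4 and 69.4 normalized counts in control mice and 32.2, 35.3 and 36.6 in p300-ifKO mice, with a clear gap between the groups. Its log2 fold change was −0.77 (SE 0.31, unadjusted p = 0.0122). Col12a1 had 238, 161 and 284 normalized counts in control mice and 117, 174 and 137 in p300-ifKO mice, and control replicate 2 lay below p300-ifKO replicate 2. The log2 fold change of Col12a1 was −0.67 (SE 0.27, unadjusted p = 0.0121).

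Col16a1 and Col9a3 were the most abundant FACIT genes per kb. Col16a1, made by fibroblasts and smooth muscle, had 599, 634 and 589.8 normalized counts in control mice and 469, 595 and 511 in p300-ifKO mice (log2 fold change −0.21, SE 0.15, unadjusted p = 0.161). Col9a3, a chain of cartilage type IX, had 330.1, 325 and 348 normalized counts in controls and 379, 315 and 388 in p300-ifKO mice (0.11, SE 0.16, unadjusted p = 0.489), and 4.88% of its 50-base stretches are shared with Tcfl5 on the other strand. The intervals of both excluded a 2-fold change in either direction. Col20a1 had 264, 273 and 302 normalized counts in controls and 214, 245 and 242 in p300-ifKO mice, which did not overlap (−0.26, unadjusted p = 0.111). Col9a1, Col9a2 and Col22a1 had log2 fold changes of 0.47, −0.15 and 0.24.

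Both neuronal collagens had fold changes below 0 and wide spreads between mice. Col25a1, a membrane collagen of neurons known as the precursor of an amyloid plaque component, had 2111, 2061 and 2374 normalized counts in control mice and 985, 2472 and 1718 in p300-ifKO mice. The p300-ifKO mice spanned a wider range than the controls, with replicate 2 the highest and replicate 1 the lowest of all 6. The log2 fold change was −0.34 (SE 0.28, unadjusted p = 0.233), and with 1 surrogate variable it was 0.018. Col19a1, which in brain is made by interneurons and other neuron subsets, had 151, 153 and 419 normalized counts in control mice and 56.9, 242 and 126 in p300-ifKO mice. Control replicate 3 was the highest and the groups overlapped (−0.77, SE 0.74, unadjusted p = 0.300). The median of these 2 genes was −0.55, and −0.23 without p300-ifKO replicate 1.

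The remaining transmembrane collagens are made by epithelial and mesenchymal cells. Col23a1 had 792, 358 and 634 normalized counts in control mice and 307, 414 and 503 in p300-ifKO mice, with control replicate 2 inside the p300-ifKO range (log2 fold change −0.54, SE 0.30, unadjusted p = 0.0673). Col13a1, found at adhesion sites and the neuromuscular junction, had 40.8, 35.7 and 55.1 normalized counts in controls and 22.6, 25.6 and 31.8 in p300-ifKO mice, without overlap (−0.72, unadjusted p = 0.0505). Of the 6 network-forming and other collagens, 5 had fold changes below 0, none at an unadjusted p under 0.05. Col7a1, of skin anchoring fibrils, was at −0.010 (SE 0.20, unadjusted p = 0.958) with 153, 187 and 177 normalized counts in controls and 151, 192 and 169 in p300-ifKO mice. Col8a2, a chain of the type VIII network of vessels and cornea, had 66.6, 41.0 and 105 normalized counts in controls and 48.3, 41.5 and 73.3 in p300-ifKO mice (−0.38, SE 0.40, unadjusted p = 0.340). Both had overlapping groups. Col26a1 was the most even member of this class, with 87.5 to 91.4 normalized counts in controls and 85.9 to 95.5 in p300-ifKO mice.

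The fibrillar, vascular and neuronal collagens were next set against each other within each library. Summed per kb, the 5 meningeal fibrillar genes reached 191, 141 and 237 normalized counts per kb in control mice and 92.8, 160 and 149 in p300-ifKO mice. Among these genes Col5a1 and Col5a2 had the highest mean levels, 75.6 and 41.2 normalized counts per kb. The 4 vascular basement membrane genes reached 690, 636 and 654 in controls and 490, 815 and 585 in p300-ifKO mice on the same scale. The ratio of the first sum to the second was 0.276, 0.221 and 0.362 in controls and 0.189, 0.196 and 0.254 in p300-ifKO mice, and p300-ifKO replicate 3 lay above control replicate 2. For the 2 neuronal genes the ratio to the vascular sum was 0.267, 0.284 and 0.372 in controls and 0.171, 0.276 and 0.257 in p300-ifKO mice, where p300-ifKO replicate 2 lay inside the control range.

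**Figure D3:**
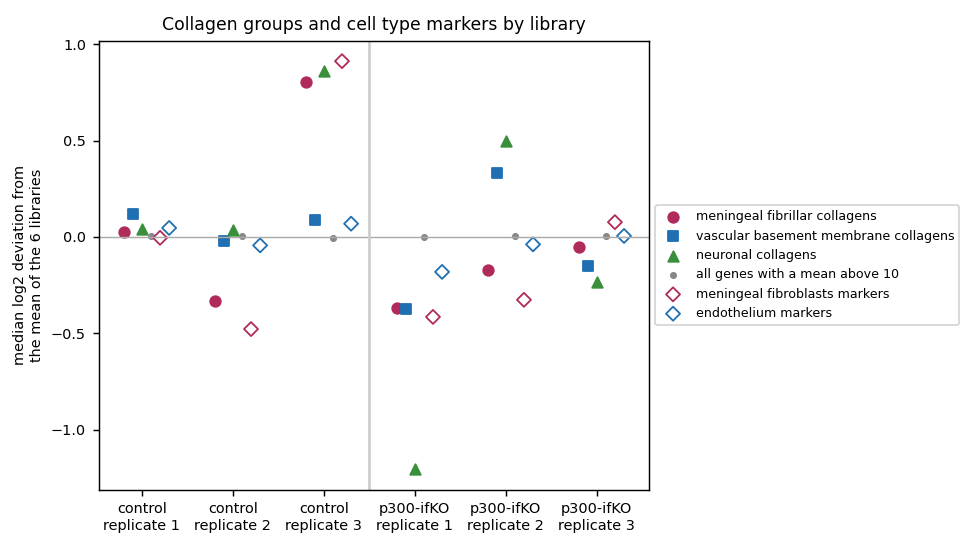
The y axis gives the median log2 deviation of each gene list from its mean over the 6 libraries on the x axis; filled symbols are collagen groups, open diamonds marker lists and grey dots all genes with a mean above 10. In control replicate 3 the meningeal fibrillar collagens (0.81) and meningeal fibroblast markers (0.91) are both high, and in p300-ifKO replicate 1 the neuronal collagens are at −1.21.

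Several partner chains of one collagen type, among them the abundant ones of types IV and VI, varied less in their ratio than in their levels. Others did not. The ratio of Col4a1 to Col4a2 per kb was 0.648, 0.675 and 0.729 in control mice and 0.639, 0.627 and 0.641 in p300-ifKO mice. The highest ratio was 1.16 times the lowest, whereas the level of each gene varied 1.67-fold and 1.70-fold over the same libraries. The ratio was lower in every p300-ifKO mouse by a narrow gap (at most 0.641, against at least 0.648 in controls). It was the only 1 of the 10 ratios examined in which the groups did not overlap. No share over other gene pairs was computed to set beside that count, and the ratio was not tested. The ratio of Col6a1 to Col6a2 lay between 6.43 and 7.91 and did not separate the groups, while the levels of these genes varied 2.36-fold and 2.21-fold. The ratio also varied less than both levels for Col5a1 to Col5a2 (1.36-fold, against 2.69-fold and 2.82-fold). The same held for Col1a1 to Col1a2 (1.42-fold, against 2.20-fold and 3.12-fold). Col4a5 to Col4a6 ranged from 2.30 to 4.57 (1.99-fold, against 3.01-fold and 2.40-fold for the levels). Col11a1 to Col11a2 ranged from 0.141 to 0.388, or 2.76-fold, more than either level (2.39-fold and 1.70-fold). The ratio also varied more than either level for Col4a3 to Col4a4 (2.62-fold, against 1.78-fold and 1.90-fold). For Col9a1 to Col9a2 it varied 2.51-fold, against 1.94-fold and 1.97-fold. Col8a1 to Col8a2 varied 3.39-fold, against 7.36-fold and 2.57-fold, and Col9a3 to Col9a2 varied 1.87-fold, against 1.23-fold and 1.97-fold. For Col4a5 to Col4a6 and Col11a1 to Col11a2 the lowest ratio was in p300-ifKO replicate 1.

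**Figure D4:**
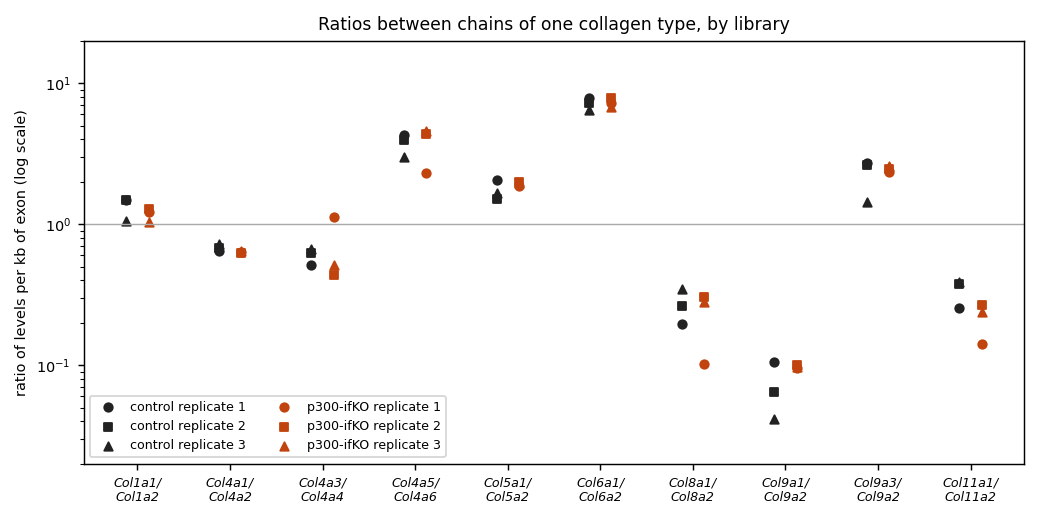
The y axis (log scale) gives the ratio of the levels per kb of exon of 2 chains of the same collagen type; each point is 1 mouse, black for control and orange for p300-ifKO. Col4a1/Col4a2 and Col6a1/Col6a2 are the tightest of the 10 ratios, and Col8a1/Col8a2, where the highest is 3.39 times the lowest, is the widest.

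The genes that make, modify and bind collagen were counted in the same comparison, and DESeq2 and edgeR called 0 in each list. In DESeq2, 3 genes had an unadjusted p under 0.05, all lower in p300-ifKO mice (0.546% of all genes were lower at that level). All 3 were fibril-associated proteoglycans, and the other 5 lists held 0. Of 18 genes for chain synthesis and folding (hydroxylases, chaperones), 8 had fold changes below 0 and the median was 0.017. Of 13 genes for processing and cross-linking 10 were below 0 (median −0.22), and of 14 other basement membrane genes such as laminins 12 were below 0 (median −0.28, and 0.0018 with 1 surrogate variable). Collagen receptors (7 of 11 below 0, median −0.073) and degradation enzymes with their inhibitors (7 of 10, median −0.069) were nearer 0. Both medians turned positive without control replicate 3 (0.052 and 0.046), and that of the receptors also without p300-ifKO replicate 1 (0.072) and with 1 surrogate variable (0.067).

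The small proteoglycans that coat collagen fibrils had the lowest median of these lists, −0.42, with 7 of 7 below 0. Dcn (decorin, which regulates fibril width) had 2489, 1785 and 2562 normalized counts in control mice and 1074, 1652 and 1917 in p300-ifKO mice, with control replicate 2 inside the p300-ifKO range. Its log2 fold change was −0.56 (SE 0.24, unadjusted p = 0.0192). Ogn (osteoglycin) and Prelp, of the same protein family, had −0.60 (unadjusted p = 0.0364) and −0.35 (unadjusted p = 0.0445). The adjusted p was 0.991 for all 3 in DESeq2. Without control replicate 3, none of the 7 had an unadjusted p under 0.05 and 5 were below 0.

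In bulk tissue, fewer cells of a type and less RNA per cell cannot be told apart, so marker genes were read beside the collagens. All 14 meningeal fibroblast markers had fold changes below 0 (median −0.45). Their summed level was 4181, 3049 and 5597 normalized counts in control mice and 2434, 2993 and 3754 in p300-ifKO mice, highest in control replicate 3, which was also highest for Col1a1, Col1a2 and Col3a1. Dcn alone gave 2489, 1785 and 2562 of these counts in controls and 1074, 1652 and 1917 in p300-ifKO mice. Dcn and Ogn stand both among these markers and among the proteoglycans above, so the lists are not separate observations. None of the 14 was at 0, and 1, Igf2, had a mean under 10. Without control replicate 3 the median of the list was 0.074, with 6 of 14 below 0. The part of meningeal tissue in the collagen values was not tested.

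Markers of the vessel wall lay closer together. Endothelial markers summed to 6167 to 6719 normalized counts in controls and 5922 to 6514 in p300-ifKO mice (median log2 fold change −0.099), and mural cell markers to 6627 to 7396 and 6852 to 7141 (−0.069). Choroid plexus markers varied between libraries, from 860.4 to 3947 in controls and 1497 to 5675 in p300-ifKO mice (median log2 fold change 0.23), and were high in control replicate 3 and p300-ifKO replicate 3. Their median was 0.97 without control replicate 3 (9 of 10 above 0) and −0.35 without p300-ifKO replicate 3 (8 of 10 below 0). For precursors of oligodendrocytes, astrocytes, interneurons and excitatory neurons the medians were −0.21, −0.016, −0.029 and −0.010, none of these lists held a gene at 0, and Camk2a had 102185 ± 7103 normalized counts in controls and 101293 ± 13406 in p300-ifKO mice (SD, n = 3).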

How the data were processed

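Hippocampal RNA-seq of 6 mice (3 control, 3 p300-ifKO, 1 library each) was used. Titles of the samples gave groups and replicate numbers. Values were raw counts of reads in each gene, as deposited by the authors. Single-end reads had been trimmed (Trim Galore 0.6.4), aligned to GRCm38 (STAR 2.6.1), filtered on mapping quality and counted on exons. Reads that match several places are lost by that filter, and no strand setting is stated, so overlapping genes of opposite strand cannot be told apart. Totals were 23151568 to 28433823 counts per library, and 0 per-sample columns were unused.

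Of 55471 identifiers, 55230 (99.57%) matched GENCODE M21 on the same build. Genes were compared with DESeq2 (version 1.42.0, R 4.3.3), the tool of the study, with a two-sided Wald test, no covariate and Benjamini-Hochberg adjustment over all genes (threshold 0.05), and with edgeR (version 4.0.16, quasi-likelihood). Intervals are 95% intervals. Levels between genes are normalized counts per kb (1000 bases) of exon. Deviations are log2 (normalized count + 0.5) minus the mean of the 6 libraries. Every 50-base exonic stretch was looked up in other genes. The scripts were tested on simulated data. Alternatives were limma-voom (3.58.1), TMM factors, filters, a replicate block, 1 surrogate variable (sva 3.50.0), length and GC offsets (mgcv 1.9.3, genes with a mean above 10) and leaving out each library; counts without overlap under other settings were added after seeing the data.

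The members, classes and lists were chosen with earlier results of these data known. Full statistics were given for the 2 members with the highest level per kb in each of 6 classes, both neuronal members and every member with an unadjusted p under 0.05. In the lists of other genes, up to 3 with an unadjusted p under 0.05 were named. Other members named with values were chosen after these were seen. The main fit did not pair the mice. Correlations of deviations between same-numbered libraries were 0.266, −0.276 and 0.143, and with 3 mice per group they cannot decide whether same-numbered mice belong together. The names of the libraries carry matching numbers in both groups, and no pairing is stated.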

Additional observations from a re-analysis of the deposited data

How the results depend on the processing

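The number of collagen genes past the threshold was 0 under each alternative that kept all libraries. It was 0 to 4 when 1 library was left out. The 4 came without p300-ifKO replicate 2, where 8.43% of genes with an adjusted p were called. The number lower at an unadjusted p under 0.05 was 5, 10 in edgeR without a filter, 2 with 1 surrogate variable and 0 to 10 when 1 library was left out (0 without control replicate 3, 1 without control replicate 1, 9 without p300-ifKO replicate 2, 10 without control replicate 2), and the number higher was 0 to 1. For edgeR without a filter, no share of all genes lower at an unadjusted p under 0.05 was computed. With 1 surrogate variable the median log2 fold change was −0.11 over all members, −0.027 over fibrillar and −0.12 over basement membrane genes. Leaving out 1 library gave −0.50 to −0.20 over all members, −0.62 to −0.071 over fibrillar, −0.42 to −0.19 over basement membrane and −1.04 to −0.18 over neuronal genes. Members wholly lower numbered 7 to 16 when 1 of control replicate 3 and p300-ifKO replicates 1 and 2 was left out (6.19% to 16.2% of all genes). Those wholly higher numbered 1 to 2 (5.49% to 15.5%). Length and GC offsets gave 9 lower (3.36%) and 0 higher (4.68%).

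Of 240 refitted values of the 16 members with full statistics, 220 were counted as keeping direction and side of the threshold. These members had an adjusted p of 0.991 or 0.997 in the main DESeq2 fit, so keeping its side was to be foreseen. Without p300-ifKO replicate 2 some of them, such as Col7a1, Col8a2 and Col14a1, had no adjusted p and were counted by direction alone. With 1 surrogate variable Col4a1 was 0.092, Col4a2 0.18, Col7a1 0.095 and Col25a1 0.018. With TMM factors Col4a2 was 0.0017 and Col7a1 0.00067, in edgeR without a filter Col4a2 was 0.0018, and with length and GC offsets Col7a1 was 0.037. Leaving out 1 library gave −0.34 to 0.038 for Col4a1, −0.25 to 0.15 for Col4a2, −0.10 to 0.066 for Col7a1 and −0.66 to 0.017 for Col8a2. The cause was not tested. The replicate block left the counts at 0 past the threshold and 5 lower at an unadjusted p under 0.05, moved the median of all members to −0.39, and changed no call at the threshold; at an unadjusted p under 0.05 it had Col19a1 in place of Col14a1.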
